A study of Mus musculus with 10 samples.

Results

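The 10 genes described here are the granzymes *Gzma* to *Gzmg*, the perforin gene *Prf1*, the NK cell receptor gene *Ncr1* and the transcription factor gene *Eomes*. They were chosen by symbol, each matched 1 of the 45706 Ensembl identifiers of the count table through the GRCm38 annotation, and all 10 are among the 25146 genes tested, those averaging 1 count or more over the libraries. Whole uteri of 5 control *Arid1a f/f* females, whose *Arid1a* alleles are floxed but intact, were compared with uteri of 5 *Ltf iCre/+ Arid1a f/f* females, called knockout here, which carry the same floxed alleles and in addition 1 copy of iCre at the *Ltf* locus. All 10 mice were adult females at gestation day (GD) 3.5, shortly before implantation, and each library is numbered 1 to 5 within its genotype. The iCre is driven by lactoferrin and deletes *Arid1a*, a subunit gene of the SWI/SNF chromatin remodeling complex, in the endometrial epithelium, and the study names neutrophils and other myeloid cells as further sites where it may act. In RNA from whole uteri fewer NK cells and less RNA per NK cell cannot be told apart.

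Granzymes are serine proteases stored in the granules of NK cells and cytotoxic T cells, and perforin forms the pores through which they enter a target cell. *Gzma* and *Gzmb* encode the best known members, with tryptase-like and aspartate-directed cleavage. *Gzmc*, *Gzmd*, *Gzme*, *Gzmf* and *Gzmg* are rodent genes known from activated lymphocytes and from the granulated NK cells of the mouse uterus. *Ncr1* encodes the activating receptor NKp46, which marks NK cells and other innate lymphoid cells, and *Eomes* encodes a T-box factor of conventional NK cells.

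Of the 7 granzymes, 6 lie side by side on chromosome 14 in GRCm38, all on the minus strand. From *Gzmb* (ENSMUSG00000015437, chr14:56258838-56262260) through *Gzmc* (ENSMUSG00000079186, chr14:56231441-56234656), *Gzmf* (ENSMUSG00000015441, chr14:56205263-56211417), *Gzmg* (ENSMUSG00000040284, chr14:56156582-56159579) and *Gzmd* (ENSMUSG00000059256, chr14:56129556-56132608) to *Gzme* (ENSMUSG00000022156, chr14:56117626-56120625) the row spans 144.6 kb. *Gzmn*, which is no member and had 2 counts in all 10 libraries together, sits between *Gzmf* and *Gzmg*, and the mast cell protease genes follow after *Gzme*. *Gzma* (ENSMUSG00000023132) lies apart on the minus strand of chromosome 13 (chr13:113093825-113100981). *Prf1* (ENSMUSG00000037202, chr10:61297833-61304680), *Ncr1* (ENSMUSG00000062524, chr7:4337724-4345164) and *Eomes* (ENSMUSG00000032446, chr9:118478212-118486132) are on plus strands.

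The sequences before the start sites set the 5 genes *Gzmc* to *Gzmg* apart from their neighbour *Gzmb*. RefSeq windows (GRCm38.p6) from 250 bases before to 50 bases after the start were found for all 10 genes. The 250 upstream bases of *Gzmc* to *Gzmg* were 70.2% to 94.8% identical in the 10 pairs among them, against 43.0% to 47.5% in the 10 pairs of 1 of them with *Gzma* or *Gzmb*. For *Gzmb* and for the 5 related genes, 100 bases are shown 5′ to 3′ on the minus strand. They end at the more upstream of the RefSeq and GENCODE starts. They are shown because the 20 bases in capitals are the longest run found unchanged in all 5 and because *Gzmb* lacks it.
Gzmb: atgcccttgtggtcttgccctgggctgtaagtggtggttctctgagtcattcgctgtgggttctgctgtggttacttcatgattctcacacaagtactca
Gzmc: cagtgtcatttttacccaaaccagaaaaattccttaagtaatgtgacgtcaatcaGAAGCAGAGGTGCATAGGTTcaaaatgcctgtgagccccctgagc
Gzmd: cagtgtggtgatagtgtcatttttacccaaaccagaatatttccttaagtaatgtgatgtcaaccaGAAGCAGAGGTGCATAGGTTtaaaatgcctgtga
Gzme: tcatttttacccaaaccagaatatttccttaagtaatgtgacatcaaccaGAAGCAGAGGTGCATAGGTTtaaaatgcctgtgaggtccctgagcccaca
Gzmf: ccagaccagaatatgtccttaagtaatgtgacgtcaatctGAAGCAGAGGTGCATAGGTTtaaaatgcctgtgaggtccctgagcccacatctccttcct
Gzmg: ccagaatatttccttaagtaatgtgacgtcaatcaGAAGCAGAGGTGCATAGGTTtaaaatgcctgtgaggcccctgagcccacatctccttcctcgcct
These stretches lie at chr14:56262335-56262434 for *Gzmb*, chr14:56234658-56234757 for *Gzmc*, chr14:56132609-56132708 for *Gzmd*, chr14:56120626-56120725 for *Gzme*, chr14:56211418-56211517 for *Gzmf* and chr14:56159580-56159679 for *Gzmg*. Those of *Gzmd* and *Gzmf* stop 15 and 10 bases short of the RefSeq start, where the GENCODE gene begins. That of *Gzmb* stops at its RefSeq start, which lies upstream of the GENCODE start at 56262260. Among 32544 windows of 27025 genes, the run in capitals was found in those of 5 genes, which are *Gzmc* to *Gzmg*. The cyclic AMP response element TGACGTCA was searched on both strands and was in the windows of *Gzmc*, *Gzmf* and *Gzmg*, a few bases before the run in capitals, and in 1.8% of all windows. The RUNX motif AACCACA was in 8 of the 10 members, all but *Prf1* and *Eomes*, and in 5.29% of all windows. Of these 8, 5 are the related genes *Gzmc* to *Gzmg*, whose similar windows are not separate observations. The STAT motif TTCNNNGAA was in *Gzmb* alone among the members and in 8.33% of all windows, and the T-box motif AGGTGTGA was in no member and in 1.28% of all windows. These matches describe the letters of the windows, overlaps between motifs were not examined, and none was tested as a binding site.

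None of the 10 genes passed the test between genotypes (edgeR's quasi-likelihood test, Benjamini-Hochberg adjusted p under 0.05), against 5.19% of all genes tested called higher and 4.51% called lower in knockout uteri. By the sign of the fitted change 6 were higher and 4 lower, with a median log2 fold change of 0.75 beside 0.03 over all genes. At an unadjusted p under 0.05 there were 2, *Gzmc* and *Gzmf*, where 26.2% of all genes stood (6593 genes). DESeq2 called 1 member, *Gzmc*, and 16.3% of all genes. The levels of the genotypes overlapped for each of the 10 genes, whereas 10.7% of all genes had no overlap.

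**Figure D1:**
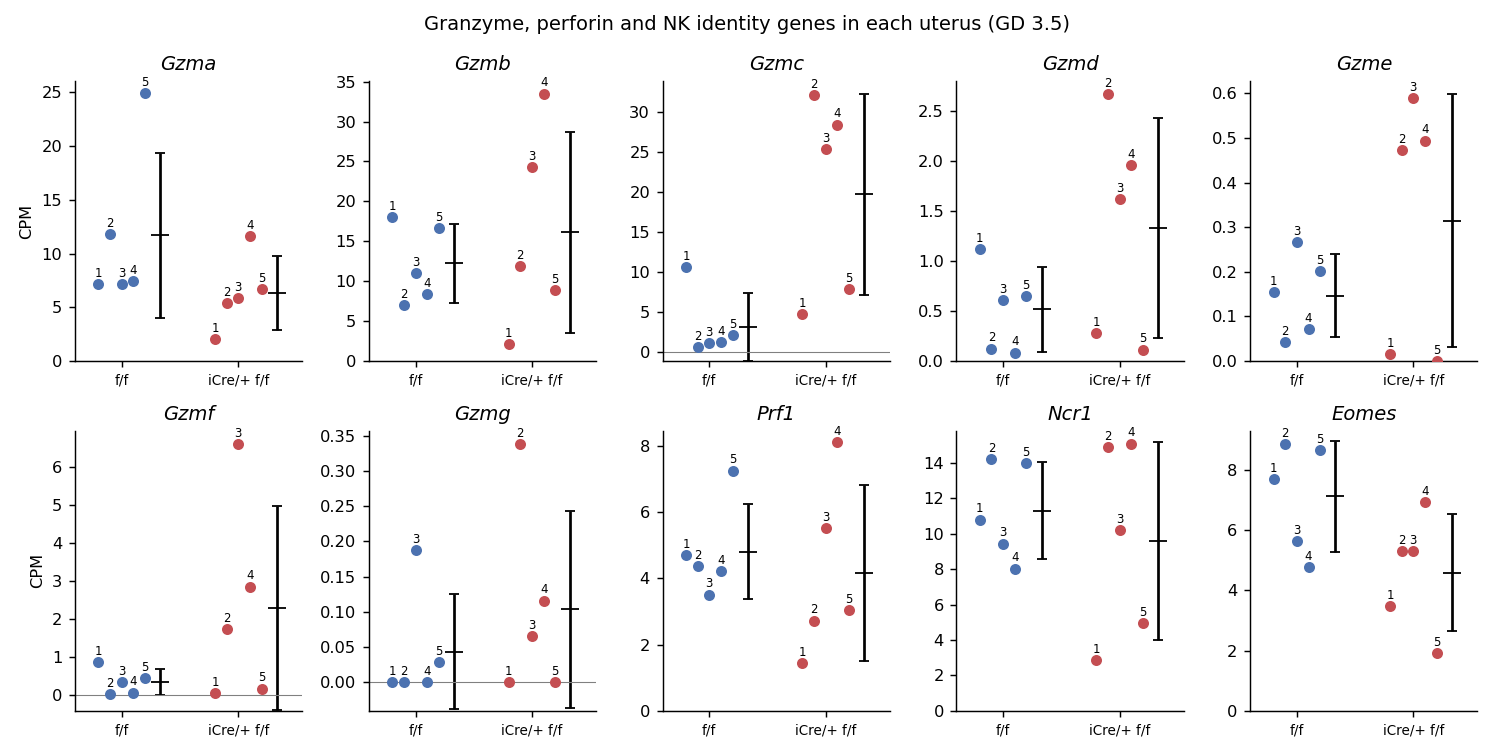
Level of each of the 10 genes (vertical axis, CPM, linear) in the 5 control (f/f, blue) and 5 knockout (*Ltf iCre/+ Arid1a f/f*, labelled iCre/+ f/f, red) uteri. Points are uteri with their replicate number, and the bar beside them is the mean ± SD (n = 5). *Gzmc* reaches 25.3 CPM or more in 3 knockout uteri and stays at 10.6 CPM or less in controls.

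**Figure D2:**
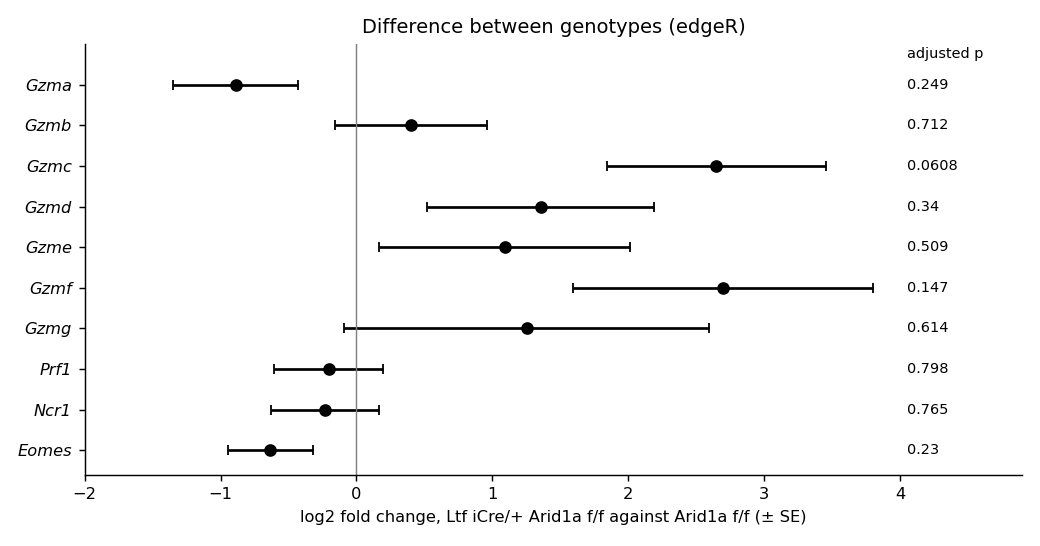
Fitted log2 fold change of each gene in knockout against control uteri (horizontal axis, points) with its SE (bars) and the edgeR adjusted p. *Gzmc* and *Gzmf* lie farthest to the right at 2.65 and 2.70, and none of the adjusted p is under 0.05.

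*Gzmc* had the smallest adjusted p of the members. In controls 1 to 5 it stood at 10.6, 0.627, 1.07, 1.24 and 2.14 CPM, the count scaled to a common library size by edgeR's TMM factors. In knockout uteri 1 to 5 it stood at 4.72, 32.1, 25.3, 28.4 and 7.86 CPM. Control 1 was far above the other 4 controls, 3 knockout uteri lay above every control, and all 5 lay above the other 4 controls. The means were 3.13 ± 4.21 CPM in controls and 19.7 ± 12.5 CPM in knockout uteri (SD, n = 5 each). The log2 fold change was 2.65 (SE 0.81, edgeR adjusted p = 0.0608), and DESeq2 gave 2.64 with an adjusted p of 0.0142. An exact permutation of the genotypes among the 10 uteri (two-sided, smallest possible p 0.00794) gave an unadjusted p of 0.0238. Leaving out control 1 changed the edgeR call: the log2 fold change was then 3.95 (edgeR adjusted p = 0.00627). Leaving out any other uterus gave 2.37 to 2.89 and no call. The edgeR adjusted p was just above the threshold without knockout uterus 1 (0.0504) or 5 (0.0506).

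*Gzmf*, the next granzyme along the chromosome, had a fitted change of like size but at lower levels. Controls 1 to 5 held 0.867, 0.0279, 0.345, 0.0710 and 0.445 CPM. Knockout uteri 1 to 5 held 0.0627, 1.74, 6.61, 2.86 and 0.174 CPM. Uteri 2, 3 and 4 lay above every control and uteri 1 and 5 within the control range. The log2 fold change was 2.70 (SE 1.10, edgeR adjusted p = 0.147, unadjusted p = 0.0317), and 1.78 without knockout uterus 3. *Gzmf* overlaps the antisense gene *Gm4022*, and since it is not stated whether reads were counted by strand, reads of both could not be separated.

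*Gzmd* and *Gzme* split the knockout uteri in the same way. *Gzmd* stood at 1.12, 0.125, 0.611, 0.0852 and 0.646 CPM in controls and at 0.282, 2.67, 1.62, 1.96 and 0.116 CPM in knockout uteri (log2 fold change 1.36, SE 0.83, edgeR adjusted p = 0.340). *Gzme* stood at 0.154, 0.0418, 0.266, 0.0710 and 0.201 CPM in controls and at 0.0157, 0.473, 0.589, 0.494 and 0 CPM in knockout uteri (1.09, SE 0.92, edgeR adjusted p = 0.509). For both genes uteri 2, 3 and 4 were above every control and uteri 1 and 5 were not. *Gzmg* was close to the limit of detection, with 0, 0, 12, 0 and 2 counts in controls and 0, 20, 4, 8 and 0 counts in knockout uteri, where 3 counts correspond to 0.0418 to 0.0507 CPM (1.25, SE 1.34, edgeR adjusted p = 0.614). Single libraries set this value, which was 0.11 without knockout uterus 2 and 3.54 without control 3.

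Reads of these granzymes may be hard to assign, since the genes resemble each other. The reads came in pairs, and the shares below are for single reads. A pair can still be placed by its other read, so these are not shares of lost pairs. Of the 50-base windows of each transcript, as long as the reads, 21.9% in *Gzmd*, 20.6% in *Gzme*, 19.4% in *Gzmf* and 19.8% in *Gzmg* were also present in a transcript of another gene, against 4.14% in *Gzmc*, 2.28% in *Eomes*, most of them shared with *Gm33460*, and none in *Gzma*, *Gzmb*, *Prf1* and *Ncr1*. *Gzmd* and *Gzme* were the closest pair, with 90.0% identical transcripts. Their separate values are therefore uncertain, and the 4 genes *Gzmd* to *Gzmg* were also added up. The sum was 2.14, 0.195, 1.41, 0.227 and 1.32 CPM in controls and 0.361, 5.22, 8.88, 5.43 and 0.289 CPM in knockout uteri, with 3 knockout uteri above and 2 among the controls (log2 fold change 1.93, SE 0.93, edgeR adjusted p = 0.219).

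**Figure D3:**
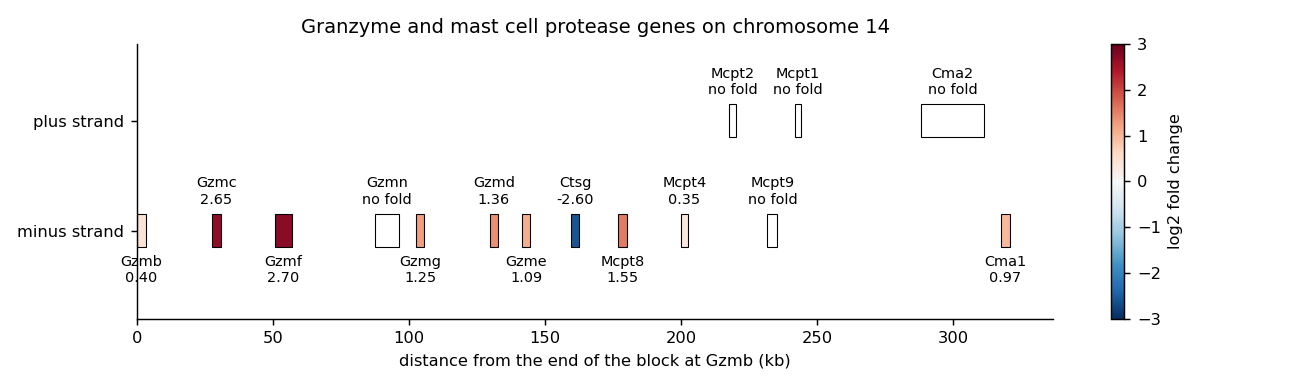
Protein-coding genes of the granzyme and mast cell protease row on chromosome 14 by distance from the *Gzmb* end of the row (horizontal axis, kb) and by strand, coloured by the fitted log2 fold change printed at each gene. Boxes marked "no fold" had a mean under 1 count or no count in any control, and *Gzmb* to *Gzme* are all to the left of 150 kb with values from 0.40 to 2.70.

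*Gzmb*, at the end of the row, had a smaller fitted change than *Gzmc*, a difference that was not tested. Its levels were 18.0, 7.00, 11.0, 8.42 and 16.7 CPM in controls and 2.13, 11.9, 24.3, 33.5 and 8.85 CPM in knockout uteri. Both the lowest and the highest level belonged to a knockout uterus, and the log2 fold change was 0.40 (SE 0.56, edgeR adjusted p = 0.712) and -0.05 without uterus 4 of the knockouts. *Prf1*, whose product acts together with granzymes, stood at 4.69, 4.36, 3.51, 4.22 and 7.25 CPM in controls and at 1.44, 2.72, 5.51, 8.12 and 3.04 CPM in knockout uteri. Its log2 fold change was -0.21 (SE 0.40, edgeR adjusted p = 0.798), and 0.01 without uterus 1 of the knockouts. With each genotype centred on its own mean, *Gzmb* and *Prf1* had a Pearson r of 0.906 over the 10 libraries, a description of libraries that share depth and tissue make-up.

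*Gzma*, the granzyme on chromosome 13, had a fitted change of the opposite sign. Its levels were 7.16, 11.8, 7.18, 7.41 and 24.9 CPM in controls and 2.01, 5.37, 5.85, 11.6 and 6.70 CPM in knockout uteri. Control 5 stood far above the rest, and 4 knockout uteri lay below every control while uterus 4 lay among them. The means were 11.7 ± 7.65 and 6.31 ± 3.46 CPM (SD, n = 5 each). The log2 fold change was -0.89 (SE 0.46, edgeR adjusted p = 0.249, exact permutation p = 0.119), and -0.41 without control 5.

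The identity genes *Ncr1* and *Eomes* did not pass the test either. *Ncr1* stood at 10.8, 14.2, 9.45, 8.04 and 14 CPM in controls and at 2.87, 14.9, 10.2, 15.1 and 4.95 CPM in knockout uteri (log2 fold change -0.23, SE 0.40, edgeR adjusted p = 0.765). Uteri 1 and 5 were below every control and uteri 2 and 4 above every control. *Eomes* stood at 7.69, 8.85, 5.62, 4.77 and 8.64 CPM in controls and at 3.48, 5.31, 5.31, 6.93 and 1.92 CPM in knockout uteri, where all 5 were below the control median (-0.63, SE 0.31, edgeR adjusted p = 0.230, exact permutation p = 0.0794). *Eomes* overlaps *Gm33460* on the opposite strand, which its counts may include.

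Uterus 1 of the knockouts had the lowest level of the 10 libraries for 4 members (*Gzma*, *Gzmb*, *Prf1* and *Ncr1*). Knockout uterus 5 had it for 2 (*Gzme* and *Eomes*), but its *Gzma* (6.70 CPM) was above that of knockout uteri 2 and 3. In knockout uteri 1 and 5 *Gzmc* (4.72 and 7.86 CPM) was above every control but control 1. The same uteri had the highest *Epcam*, an epithelial gene (330 and 322 CPM, against 104 to 137 in the other 3 and 73.5 to 102 in controls), and the lowest *Vim*, a stromal gene (493 and 321 CPM, against 657 to 732 and 1020 to 1190). Uterus 5 also held 941 CPM of 12 summed neutrophil genes, against 18.0 to 35.7 CPM in controls and 20.4 to 34.2 CPM in the other knockout uteri. Without both uteri, an alternative chosen after seeing the data, the fitted log2 fold changes were 3.19 for *Gzmc*, 3.40 for *Gzmf*, 1.82 for *Gzme* and 2.62 for *Gzmd* to *Gzmg* summed. These 3 genes then passed the threshold, as did 1253 of 25046 genes in the higher direction. The omitted uteri had the lowest levels of the same genes among the knockout uteri, so these calls are no independent support. The fitted change of *Ncr1* was then 0.25 and that of *Prf1* 0.18, opposite in sign to those with all uteri. The part of the tissue make-up in these levels was not tested.

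Set against *Ncr1* in the same library, *Gzmc* separated the genotypes. The ratio of *Gzmc* to *Ncr1* CPM was 0.983, 0.0441, 0.113, 0.154 and 0.153 in controls and 1.64, 2.15, 2.49, 1.88 and 1.59 in knockout uteri, so that uteri 1 and 5, which had the lowest *Ncr1*, lay with the other 3. The means were 0.289 ± 0.390 and 1.95 ± 0.375 (SD, n = 5 each). Of all genes tested, 1.77% had a ratio to *Ncr1* that was higher in every knockout library than in any control, and *Gzmc* alone did among the 9 member ratios. The ratio was chosen after seeing the data and is given with no test. The separation depended on the gene divided by. Set against *Eomes*, *Gzmc* overlapped between the genotypes. Control 1 held 10.6 CPM of *Gzmc* beside 7.69 CPM of *Eomes*, and knockout uterus 1 held 4.72 CPM beside 3.48 CPM.

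The other ratios to *Ncr1* overlapped between the genotypes. That of *Eomes* was 0.713, 0.622, 0.595, 0.594 and 0.619 in controls, a narrow range, and 1.21, 0.356, 0.523, 0.460 and 0.389 in knockout uteri, where 4 lay below every control and uterus 1 above. That of *Gzma* was 0.664, 0.829, 0.760, 0.922 and 1.79 in controls and 0.699, 0.360, 0.576, 0.770 and 1.35 in knockout uteri. That of *Prf1* had means of 0.431 ± 0.0944 and 0.476 ± 0.169, and that of *Gzmb* of 1.11 ± 0.422 and 1.59 ± 0.778 (SD, n = 5 each).

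**Figure D4:**
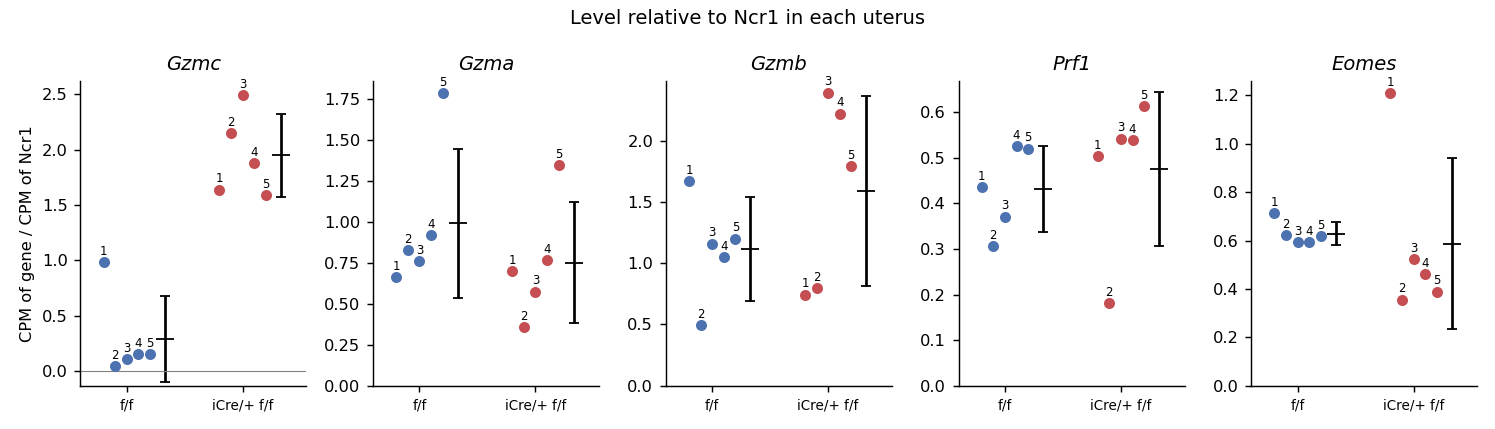
CPM of *Gzmc*, *Gzma*, *Gzmb*, *Prf1* and *Eomes* divided by CPM of *Ncr1* in the same uterus (vertical axis, linear). Points are uteri with their replicate number (blue, control f/f; red, knockout) and bars the mean ± SD (n = 5); all 5 red points of *Gzmc*, from 1.59 to 2.49, lie above the highest control at 0.983.

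Levels of different genes were compared as CPM per kb of exon. In controls the order was *Gzma* (11.6 ± 7.61), *Gzmb* (8.52 ± 3.43), *Ncr1* (7.33 ± 1.78), *Gzmc* (3.51 ± 4.71), *Prf1* (1.86 ± 0.554), *Eomes* (1.71 ± 0.440), *Gzmd* (0.537 ± 0.442), *Gzmf* (0.382 ± 0.368), *Gzme* (0.160 ± 0.101) and *Gzmg* (0.0477 ± 0.0900; SD, n = 5). Of the neighbours in this order, the SD ranges of *Eomes* and *Gzmd* did not overlap and those of all other neighbours did. In knockout uteri *Gzmc* came first (22.0 ± 13.98), followed by *Gzmb* (11.2 ± 8.77), *Gzma* (6.27 ± 3.44), *Ncr1* (6.23 ± 3.64), *Gzmf* (2.49 ± 2.91), *Prf1* (1.61 ± 1.03), *Gzmd* (1.38 ± 1.14), *Eomes* (1.11 ± 0.464), *Gzme* (0.343 ± 0.309) and *Gzmg* (0.114 ± 0.154), and the SD ranges of all neighbours overlapped.

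The make-up of the granzyme transcripts, taken per length, was led by *Gzmc* in knockout uteri. *Gzmc* was 35.1%, 4.01%, 6.82%, 9.30% and 5.95% of the summed CPM per kb of the 7 granzymes in controls and 57.8%, 65.1%, 46.7%, 43.9% and 40.1% in knockout uteri. It was the largest granzyme in each knockout uterus and in no control. *Gzma* was 21.1%, 67.0%, 40.8%, 49.6% and 61.6% in controls and 21.8%, 9.70%, 9.59%, 15.9% and 30.4% in knockout uteri. *Gzmb* averaged 35.4% ± 6.86 and 23.9% ± 7.73, and *Gzmd* to *Gzmg* were minor in every library, with *Gzmf* highest at 11.8% in knockout uterus 3. The summed level was 24.8 ± 11.4 CPM per kb in controls and 43.8 ± 27.0 in knockout uteri (SD, n = 5 each), with ranges of 14.9 to 40.2 and 9.14 to 72.4 that overlapped. Shares of 1 sum depend on each other, and no test was made on them.

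**Figure D5:**
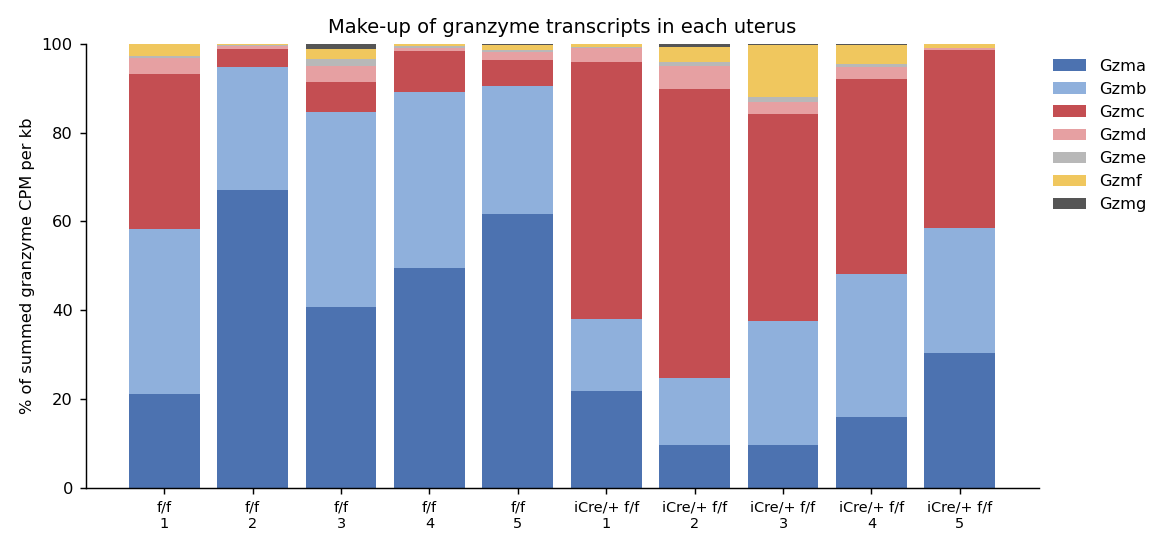
Share of each granzyme (colours) in the summed CPM per kb of the 7 granzymes (vertical axis, percent) in each uterus (horizontal axis, genotype and replicate). The red *Gzmc* segment is 40.1% to 65.1% in knockout uteri and 4.01% to 35.1% in controls.

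The lists of other genes are set beside the 9.7% of all genes tested that were called in either direction. A first list held other granzymes and genes of granule loading, granzyme activation, granule release and granzyme inhibition. Of its 15 tested genes, 1 rose and none fell (median log2 fold change 0.18), and no other granzyme was called. The gene that rose was *Unc13d*, which primes granules for release. It stood at 12.0 ± 1.39 CPM in controls and 26.2 ± 6.46 CPM in knockout uteri (1.12, edgeR adjusted p = 0.00367). *Srgn*, the granule proteoglycan (0.85, edgeR adjusted p = 0.0702), *Ctsc*, the protease that activates progranzymes (0.76, edgeR adjusted p = 0.0969), and *Lamp1*, a granule membrane protein (0.10, edgeR adjusted p = 0.581), did not pass. The summed level of this list was 721 to 840 CPM in controls and 856 to 1462 CPM in knockout uteri, with no test made on it. *Lamp1* was the largest part, at 380 to 448 CPM in controls and 403 to 548 CPM in knockout uteri. *Srgn* and *Ctsc* were highest in knockout uterus 5, at 436 and 263 CPM, which also gave the highest sum.

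Of 14 genes of NK differentiation, 3 rose and 2 fell (median 0.01), a larger share than the 9.7% of all genes. *Il15*, the cytokine on which NK cells depend, rose (0.67, edgeR adjusted p = 0.0374) from 8.43 ± 2.13 to 13.4 ± 1.98 CPM. The transcription factor genes *Runx3* (0.80, edgeR adjusted p = 0.0199) and *Ikzf3* (1.61, edgeR adjusted p = 0.00501) rose, and *Nfil3* (-0.68, edgeR adjusted p = 0.0181) and *Ets1* (-0.33, edgeR adjusted p = 0.0205) fell. None of these 4 factors is restricted to NK cells. *Zeb2* (-0.17, edgeR adjusted p = 0.376), *Id2* (0.42, edgeR adjusted p = 0.174) and *Prdm1* (-0.27, edgeR adjusted p = 0.395) did not pass.

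Of 19 NK surface and adaptor genes, 2 rose and 3 fell (median 0.14), again a larger share than that of all genes. Those that fell were the Ly49 receptor genes *Klra4* (-1.40, edgeR adjusted p = 0.0378) and *Klra7* (-1.35, edgeR adjusted p = 0.0492), and the integrin gene *Itga1* (-0.68, edgeR adjusted p = 0.0220). In controls *Itga1* averaged 80.95 CPM, far above *Klra4* (9.05 CPM) and *Klra7* (5.415 CPM), and which cells held it was not tested. Those that rose were *Cd226* (1.75, edgeR adjusted p = 0.0185), an activating receptor, and *Fcgr3* (1.40, edgeR adjusted p = 0.0411), an Fc receptor that myeloid cells carry too. In knockout uteri 1 to 5 *Cd226* stood at 2.84, 3.77, 13.2, 9.01 and 7.32 CPM, and *Ncr1* at 2.87, 14.9, 10.2, 15.1 and 4.95 CPM. Which cells held *Cd226* was not tested. *Tyrobp* (0.82, edgeR adjusted p = 0.116), *Fcer1g* (0.53, edgeR adjusted p = 0.110) and *Klrk1* (-0.35, edgeR adjusted p = 0.449) did not pass.

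Markers of other cells that can hold granzymes or lie near them moved as well. Of 10 T cell genes, 4 rose and none fell (median 0.89), where 5.19% of all genes rose: *Cd3d* (2.07, edgeR adjusted p = 0.00503), *Cd3e* (2.04, edgeR adjusted p = 0.00512), *Cd3g* (2.39, edgeR adjusted p = 0.00676) and *Cd5* (1.31, edgeR adjusted p = 0.0290), but not *Thy1* (-0.20, edgeR adjusted p = 0.402), *Cd28* (0.26, edgeR adjusted p = 0.785) or *Cd4* (0.69, edgeR adjusted p = 0.0855). *Cd3e* stood at 2.78, 2.20, 1.65, 2.34 and 2.28 CPM in controls and at 5.82, 3.97, 15.4, 12.3 and 8.88 CPM in knockout uteri. Uteri 3 and 4 were high in both *Cd3e* and *Gzmc*, while uterus 2, with the highest *Gzmc*, had the lowest *Cd3e* of the knockout uteri. The summed T cell list ranged from 156 to 185 CPM in controls and from 134 to 212 CPM in knockout uteri, most of it *Thy1*, and none of the 10 genes was at 0 in all libraries. The part of T cells in the granzyme levels was not tested.

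Of 13 tested genes of mast cells and of the protease row beside the granzymes, 2 rose (median 1.19), both at low levels. *Tpsab1*, a mast cell tryptase, averaged 0.0169 CPM in controls and 0.319 CPM in knockout uteri (edgeR adjusted p = 0.0298). *Mcpt2* had no count in any control and 42 counts in all knockout libraries together (edgeR adjusted p = 0.0343). *Cpa3* (0.97, edgeR adjusted p = 0.294), a mast cell carboxypeptidase, *Kit* (-0.40, edgeR adjusted p = 0.349) and *Hdc* (-0.27, edgeR adjusted p = 0.740), the histamine-forming enzyme, did not pass, and *Mcpt9* had no count in any library. The summed list ranged from 452 to 574 CPM in controls and from 130 to 598 CPM in knockout uteri, most of it *Hdc*. In controls *Hdc* averaged 429.5 CPM, far above *Cpa3* (2.575 CPM). Which cells held *Hdc* and *Kit* was not tested, so this sum is no measure of mast cells.

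Neutrophil genes and tissue genes describe the libraries. Of 11 tested neutrophil genes 2 rose, *Ly6g* (3.82, edgeR adjusted p = 0.0294) and *Mmp8* (5.99, edgeR adjusted p = 0.0440), while *S100a8* (6.23, edgeR adjusted p = 0.0735), *S100a9* (6.14, edgeR adjusted p = 0.0813) and *Csf3r* (1.94, edgeR adjusted p = 0.145) did not pass, and knockout uterus 5 held most of these counts. Of 15 tissue genes, the epithelial *Epcam* (1.20), *Cdh1* (0.82), *Krt8* (0.87) and *Krt19* (0.77) rose, the gland factor gene *Foxa2* (-1.13) and *Vim* (-0.94) fell, and the muscle genes *Acta2* (-0.50), *Myh11* (-0.78) and *Des* (-0.38) did not pass. Markers of epithelium, stroma and muscle were present in all 10 libraries, as in whole uterus. The check of the genotype gave *Arid1a* at 213 ± 22.9 CPM in controls and 185 ± 15.9 CPM in knockout uteri (-0.20, edgeR adjusted p = 0.201), measured in RNA of the whole uterus. *Ltf*, whose locus carries the iCre, stood at 2.22 to 11.7 CPM in controls and at 23.6 to 2830 CPM in knockout uteri (7.23, edgeR adjusted p = 0.00920). Its highest level was in knockout uterus 5, which also held the most neutrophil RNA. What raised *Ltf* was not tested, and its level is no measure of iCre.

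For each of the 9 members with a mean of at least 10 counts, the 3 genes of most similar variation within the genotypes were taken from 19273 genes, by Pearson r of centred log2 CPM over the 10 libraries. Those of *Gzma* were *Klrb1f* (0.967), an NK receptor gene, *Klra7* (0.948), the Ly49 gene that fell above, and *Gimap7* (0.945), a lymphocyte GTPase gene. No named NK gene was among the 3 of any other member. *Ncr1* had *Rbpj* (0.975), *Gm4832* (0.958) and *Hoxa11* (0.956), and *Eomes* had *4930432M17Rik* (0.968), *Rpl30-ps10* (0.958) and *A330033J07Rik* (0.957). *Gzmb* had *Tbc1d32* (0.989), *Tmem163* (0.983) and *Gabbr1* (0.977), and *Prf1* had *Ankra2* (0.977), *Pcgf1* (0.971) and *Sema4g* (0.968). *Gzmc* had *Ccdc114* (0.951), *Zcchc24* (0.940) and *Efcab2* (0.936). *Gzmd* had *Gm42957* (0.963), *Slc35d1* (0.961) and *Sorbs3* (0.945), *Gzme* had *Piezo2* (0.967), *Mtr* (0.965) and *Doc2a* (0.964), and *Gzmf* had *1600020E01Rik* (0.972), *Map3k12* (0.968) and *Ccdc157* (0.960). With 10 libraries and this many genes searched, these values are descriptions only.

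Among the members themselves the same measure was highest for *Gzme* with *Gzmf* (0.909), *Gzmb* with *Prf1* (0.906) and *Gzmd* with *Gzme* (0.903), and lowest for *Gzma* with *Gzmc* (0.261).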

How the data were processed

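The authors sequenced 50 bp, paired end mRNA libraries of whole uteri, trimmed them (cutadapt 1.18, Trim Galore 0.6.4), checked them with FastQC 0.11.9, aligned them to GRCm38 with STAR 2.7.3a and deposited raw counts per gene from its GeneCounts mode, without normalization. Which annotation release and strand setting the counting used is not given in the sources used here. All 10 count columns were matched to samples by name. Totals were 65351817 to 72702411 counts in controls and 59296537 to 67990486 in knockout uteri, and no pair of libraries of the same genotype agreed within sampling noise. Each library is labelled as a separate uterus.

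Symbols and positions came from GENCODE vM21. Genes averaging 1 count or more were tested in R 4.3.3 with edgeR 4.0.16 (TMM factors, quasi-likelihood test, 1 factor, genotype, with p adjusted by Benjamini-Hochberg over 25146 genes, threshold 0.05). SEs belong to the same fit. Alternatives were DESeq2 1.42.0, other scalings and filters, the replicate number as a block, and omission of each uterus. The procedures were tested on simulated counts. Drawings used matplotlib 3.10.9, and sequences were compared with Biopython 1.88.

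The members and gene lists were chosen with earlier results of these data known. Named were the 10 members, each called gene of the other lists with up to 3 more per list of largest mean count, the 3 genes most like each member, and *Arid1a* and *Ltf*. Counts of *Gzmn* and *Mcpt9* lie outside this rule and were added after their values were seen. Sequence windows are RefSeq's.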

Additional observations from a re-analysis of the deposited data

Results flagged for a closer look

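Each level of a member in each genotype was examined for a uterus far from the other 4, judged by its gap to the nearest uterus over the range of the group (Dixon's critical value 0.71 for 5 samples). Chance marks about 5 in 100 such groups. Control 5 stood out for *Gzma*, at 24.9 CPM with the next control at 11.8 CPM. Control 1 stood out for *Gzmc*, at 10.6 CPM with the next control at 2.14 CPM. Control 3 stood out for *Gzmg*, at 0.188 CPM with the next control at 0.0287 CPM, which are 12 and 2 counts. No knockout uterus stood out in this way for any member. Control 1 had ordinary levels of *Ncr1* (10.8 CPM) and *Eomes* (7.69 CPM), and control 5 had 14 and 8.64 CPM of these genes.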

How the results depend on the processing

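DESeq2 called 1 member higher and 4103 genes in all, against 0 and 2438 with edgeR, and gave *Gzmc* 2.64. Leaving out each uterus gave 0 to 1 members called higher, 1204 to 2381 genes in all (lowest without control 2, 1248 without control 3 and 1414 without control 4), and log2 fold changes of 2.37 to 3.95 for *Gzmc*, -0.051 to 0.68 for *Gzmb*, -0.60 to 0.013 for *Prf1*, -1.23 to -0.41 for *Gzma* and 0.11 to 3.54 for *Gzmg*. Without both knockout uteri 1 and 5, chosen after seeing the data, 3 members and 1253 genes in all were called higher (2358 in either direction), with 3.19 for *Gzmc*, 1.82 for *Gzme*, 3.40 for *Gzmf* and 2.62 for *Gzmd* to *Gzmg* summed, and the signs of *Prf1* (0.18) and *Ncr1* (0.25) turned. The cause was not tested. RLE or upper-quartile scaling, no filter on low counts and filterByExpr changed no call or direction of a member, and *Gzmg* was not tested under filterByExpr. Same-numbered uteri of the 2 genotypes hardly deviated together (correlations of -0.0368 to 0.106, with uteri 2 and 5 matching best with their own number). The numbers were therefore taken as names. These correlations cannot exclude that some uteri were paired, since the study used littermates where it could. With the replicate block 1704 genes were called, *Gzmc* had 3.34, and no call of a member changed. Depth limits *Gzmg*, whose 4.6 counts per library lie near the limit of 3 counts.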
